A study of Mus musculus with 6 samples.

Results

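This section describes 35 genes of blood and lymphatic endothelium, pericytes and vascular growth factors in whole mouse testis. They were chosen by name for their known roles in vessels. Earlier results of these data were known at that time, so the list may not be independent of the values below. All 35 are among the 55850 gene rows of the deposited table, and 34 of them reached a mean of 1 FPKM, the level from which genes were tested (14238 genes in all). FPKM is the number of reads or fragments of a gene scaled by its length and by the size of the library, so that levels of different genes can be set side by side. The study sequenced RNA of testis from 3 wild-type (WT) samples and 3 samples with the genotype label CKO (cKO, conditional knockout), none of them treated. Its title places the loss of SRSF2, a splicing factor, in Sertoli cells, the somatic nurse cells of the seminiferous tubule. The sources used here do not give the Cre driver, the floxed allele, the alleles of the controls or the age of the mice. Whether each sample is a separate animal is not stated, and p-values therefore cover only the variation among these 6 samples, part or all of which may be technical.

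Endothelial cells line vessels and hold together through adherens and tight junctions. They receive VEGF through the tyrosine kinase receptors KDR, FLT1 and FLT4 with neuropilins as co-receptors, and angiopoietins through TEK with TIE1. Pericytes wrap the capillaries. In the testis the vessels lie in the interstitium between the tubules, and the tubules themselves hold no vessels.

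Srsf2, the targeted gene, was at 127, 96.7 and 102 FPKM in the WT libraries and 73.98, 87.3 and 87.3 FPKM in the cKO libraries, with no overlap (log2 difference -0.38, SE 0.15, limma adjusted p = 0.384). Other cells of the testis also express it, so this level does not measure the deletion. It shares 460 exon bases with Mettl23 and 288 with Mfsd11, both on the opposite strand, and whether the counting used strand is unknown here. Recovered reads numbered 16070287 to 17281330 per library. Reads of the 18S ribosomal RNA gene made up 1.58 to 2.09% of the WT libraries and 0.727 to 0.835% of the cKO libraries. Over all tested genes, cKO replicate 1 correlated best with WT replicate 2 (Pearson r of log2(FPKM + 1) across genes 0.982), above its correlation with the other cKO libraries (0.973 and 0.972). WT replicate 1 had the lowest correlation with any other library (0.944, with cKO replicate 3).

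Vascular transcripts were detected in every library, and 9 of the 34 tested genes lay lower in all 3 cKO libraries than in any WT library, while 0 lay higher in all 3. The 9 were Kcnj8, Egfl7, Cldn5, Vegfb, Plvap, Ramp2, Tie1, Vegfa and Sox18. They came from 6 of the 7 role groups below, the VEGF receptors and neuropilins being the exception. Over all tested genes, 9.92% lay lower in this way and 8.69% higher, against 26.5% and 0 genes of the vascular set. The fitted difference was negative for 24 of 34 genes (70.6%), where 49.2% of all tested genes were negative and 50.8% positive. The median log2 difference was -0.16 for the 34 genes and 0.00 for all tested genes.

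None of the 34 passed limma's test with Benjamini-Hochberg adjustment over all 14238 genes at 0.05. The lowest adjusted p was 0.36, for Kcnj8. The background under that rule was 0.00702% of tested genes lower and 0.00702% higher, or 0.014% (2 genes) in either direction. At an unadjusted p under 0.05, 8 of the 34 were lower and 0 higher, beside 7.68% and 4.65% of all tested genes. The 25 other tested genes overlapped between the groups. In bulk tissue the cells that a transcript came from are not known. Fewer vascular cells, less RNA per vascular cell and a change in other cells that express these genes cannot be told apart. A trend with GC content, given below, also ran through these values, and its part was not tested. The count of 9 was 16 when WT replicate 1 was left out, a setting in which 18.2% of all tested genes lay lower because fewer libraries have to separate. The count of 0 higher also rose when single libraries were left out. It was 3 without WT replicate 3 (Angpt2, Sox7 and Vegfc), 2 without cKO replicate 1 (Calcrl and Rgs5) and 1 without WT replicate 2 (Rgs5). There too fewer libraries have to separate, and the share of all tested genes lying higher was not counted in these settings.

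**Figure D1:**
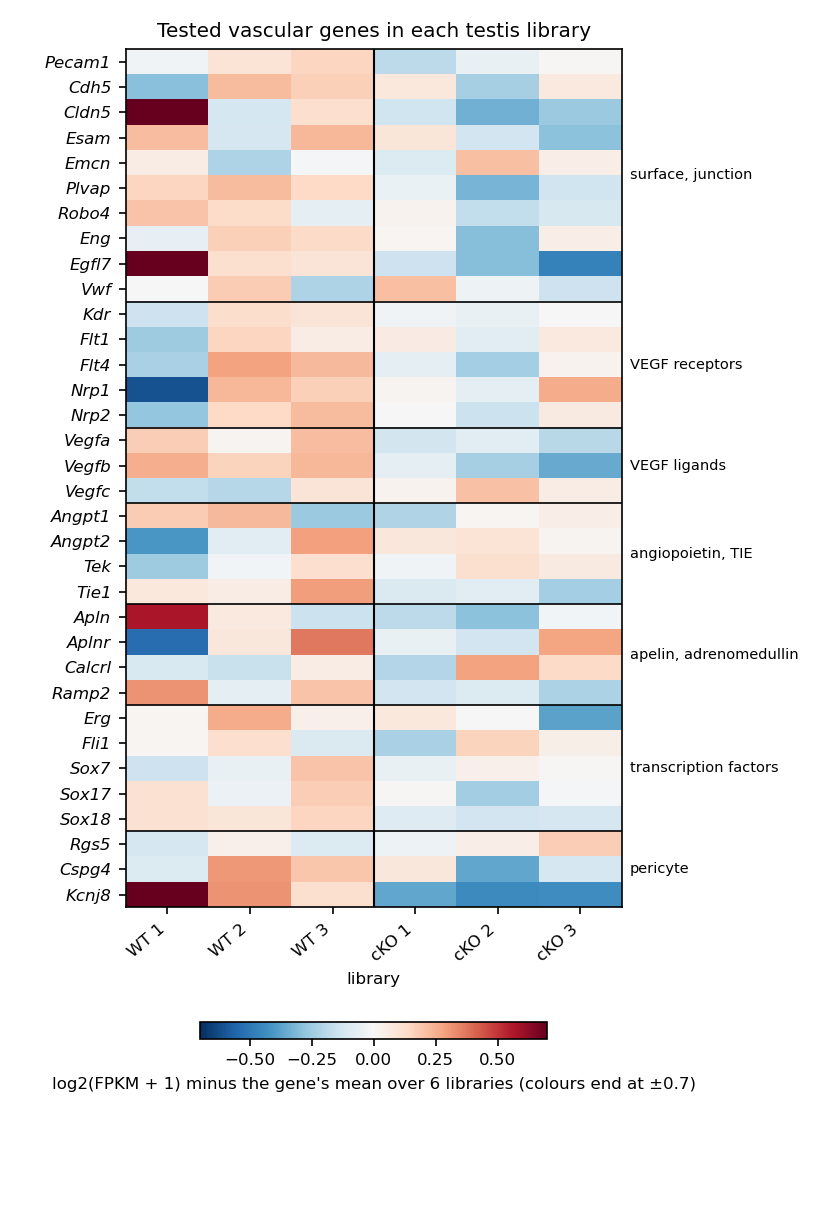
Heat map of the 34 tested vascular genes (rows, in role groups) in the 3 WT and 3 cKO libraries (columns); colour gives log2(FPKM + 1) minus the mean of that gene over the 6 libraries. Kcnj8, Egfl7 and Cldn5 stand out as high in WT replicate 1, where Nrp1 and Aplnr are low.

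Among 10 surface and junction genes of endothelium, 3 lay below every WT library in cKO testis and 8 had a negative difference (median log2 difference -0.17). Egfl7, which encodes a secreted matrix protein of endothelium, was at 18.2, 11.7 and 11.5 FPKM in WT and 9.59, 8.54 and 7.43 FPKM in cKO libraries. The groups did not overlap, and WT replicate 1 was far above the rest. The cKO mean was 61.8% of the WT mean, with a log2 difference of -0.61 ± 0.19 (SE), a 95% interval of -1.04 to -0.18 and a limma adjusted p of 0.372. The gene (ENSMUSG00000026921) lies on chromosome 2 at 26580014 to 26593120 of GRCm38, plus strand. It shares 264 exon bases with Gm20532, 64 with Agpat2 on the other strand, and 73 and 58 with the microRNA genes Mir126a and Mir126b. The way reads on shared bases were assigned is unknown here, which leaves the value of Egfl7 uncertain. Agpat2 averaged 12.2 FPKM in WT and 10.4 in cKO on average, and Gm20532 and both microRNA genes were listed at 0.

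Cldn5, the main claudin of endothelial tight junctions, was at 31.4, 16.9 and 20.2 FPKM in WT and 16.7, 14.5 and 15.3 FPKM in cKO libraries. The separation was narrow, between WT replicate 2 and cKO replicate 1, and the WT mean owed much to WT replicate 1 (log2 difference -0.49, SE 0.21, limma adjusted p = 0.405). Plvap, which forms the diaphragms of fenestrated capillaries, was at 16.2, 17.1 and 16.1 FPKM in WT and 14.0, 11.4 and 13.1 FPKM in cKO libraries. Here the WT libraries were close together and every cKO library was lower (log2 difference -0.34, SE 0.11, 95% interval -0.60 to -0.08, limma adjusted p = 0.379). Cldn5 lies on chromosome 16 at 18776847 to 18778262 and Plvap on chromosome 8 at 71497765 to 71511752 of GRCm38, and neither shares exon bases with another annotated gene.

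Cdh5, Eng and Pecam1, also among the more abundant of these surface genes, overlapped between the groups. Cdh5, which encodes VE-cadherin of the adherens junction, was at 30.7, 44.2 and 42.5 FPKM in WT and 39.8, 32.0 and 39.8 FPKM in cKO libraries. WT replicate 1 was the lowest of the 6, and the groups overlapped. Eng, the co-receptor endoglin for BMP ligands, was at 29.6, 34.7 and 34.0 FPKM in WT and 31.1, 24.9 and 31.9 FPKM in cKO libraries. Pecam1, the adhesion molecule also known as CD31, was at 11.3, 12.4 and 12.9 FPKM in WT and 10.01, 11.1 and 11.6 FPKM in cKO libraries. The 95% intervals of the log2 difference were -0.45 to 0.33 for Cdh5, -0.47 to 0.15 for Eng and -0.40 to 0.10 for Pecam1, so differences of these sizes in either direction could not be resolved. Eng shares 61 exon bases with Fpgs on the opposite strand.

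The remaining surface genes overlapped as well. Esam, a junctional adhesion molecule, averaged 11.2 ± 1.6 (SD, n = 3) FPKM in WT and 9.42 ± 1.35 in cKO testis. Robo4, an endothelial guidance receptor, was at 4.55 ± 0.516 and 3.91 ± 0.35 FPKM (SD, n = 3). Emcn, a sialoglycoprotein of capillaries and veins, was at 3.49 ± 0.427 and 3.85 ± 0.515 FPKM (SD, n = 3). Vwf, the clotting factor that endothelium and platelets store, was at 5.42 ± 0.87 and 5.5 ± 0.835 FPKM (SD, n = 3). Of these 4, Emcn and Vwf had a positive fitted difference (0.11 and 0.02 on the log2 scale).

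**Figure D2:**
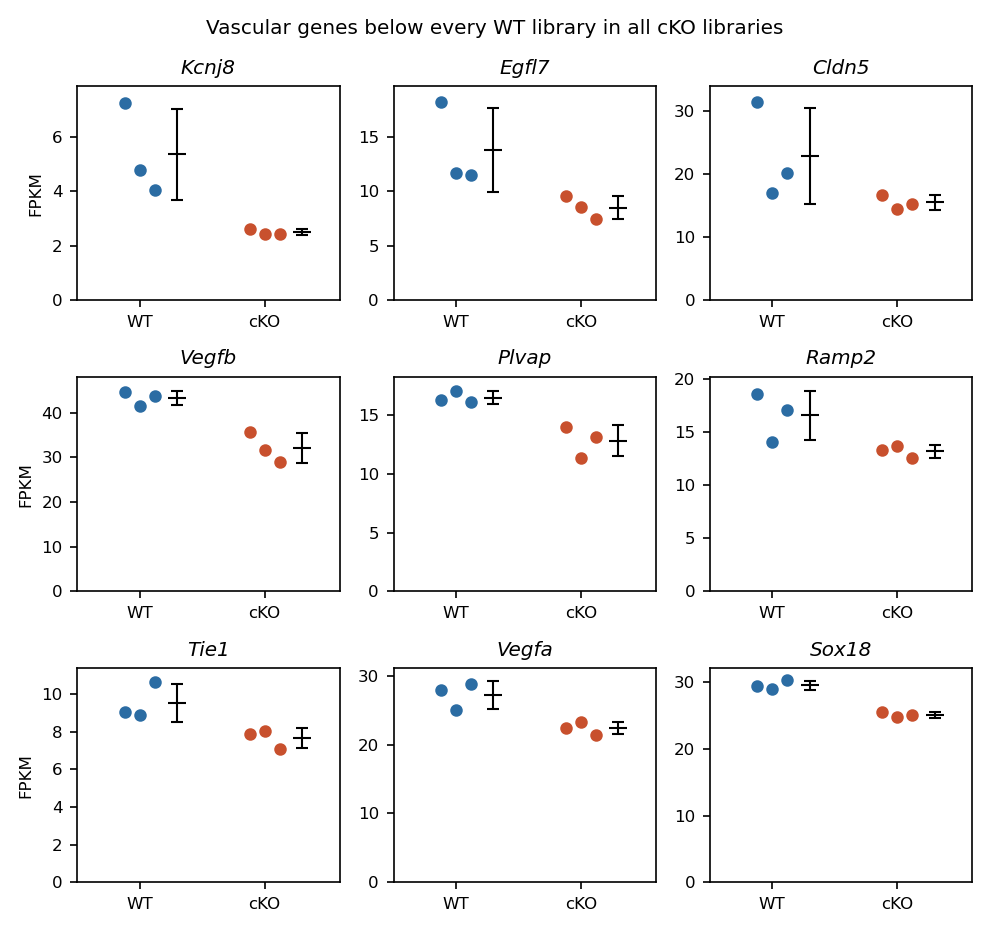
FPKM of the 9 vascular genes that lay lower in every cKO library than in any WT library; each point is a library, and the bar beside the points is the mean with its SD (n = 3). The axes start at 0; the Kcnj8 points of cKO sit at 2.43 to 2.62 FPKM and those of WT at 4.04 to 7.25, while Sox18 and Vegfa are separated by much less of their level.

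The pericyte genes held the largest difference of the set. Kcnj8 encodes Kir6.1, the pore of the ATP-sensitive potassium channel of mural cells. It was at 7.25, 4.79 and 4.04 FPKM in WT libraries, from 294, 205 and 168 recovered reads. In cKO libraries it was at 2.62, 2.43 and 2.45 FPKM, from 114, 109 and 102 reads. The cKO libraries were nearly equal and the WT libraries were spread, with WT replicate 1 the highest. The cKO mean was 46.6% of the WT mean, and the log2 difference was -0.83 ± 0.19 (SE), with a 95% interval of -1.26 to -0.40 and limma p-values of 0.00206 unadjusted and 0.36 adjusted. By that p it ranked 76 among the 14238 tested genes. On GRCm38 the gene spans 142564837 to 142571614 of chromosome 6 (minus strand), and no other annotated gene shares its exon bases.

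The other pericyte genes did not share this size of difference. Rgs5, a regulator of G protein signalling that marks pericytes, averaged 9.8 ± 0.622 FPKM in WT and 10.7 ± 0.85 in cKO testis (SD, n = 3), a log2 difference of 0.12. Cspg4, the NG2 proteoglycan, was at 7.19 ± 1.14 and 5.81 ± 1.03 FPKM (SD, n = 3), a log2 difference of -0.27, with overlapping groups. Abcc9, which is not one of the 35 and encodes the sulfonylurea receptor that joins Kir6.1 in the channel, was at 3.28 ± 0.679 and 3.11 ± 0.587 FPKM (SD, n = 3), a log2 difference of -0.05. Whether the difference of Kcnj8 is unlike that of Rgs5 or Abcc9 was not tested.

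Of the 3 VEGF ligands, Vegfa and Vegfb lay lower in every cKO library and Vegfc did not. Vegfb, a ligand of FLT1, had the highest WT mean of the 35 genes. It was at 44.6, 41.6 and 43.8 FPKM in WT and 35.6, 31.6 and 28.9 FPKM in cKO libraries, well apart. The cKO mean was 73.9% of the WT mean (log2 difference -0.43, SE 0.12, 95% interval -0.70 to -0.16, limma adjusted p = 0.372). Vegfa, the main ligand of KDR, was at 27.9, 25.0 and 28.8 FPKM in WT and 22.5, 23.3 and 21.4 FPKM in cKO libraries. Its cKO mean was 82.2% of the WT mean (log2 difference -0.27, SE 0.11, limma adjusted p = 0.393). The table gives genes and not transcripts, so the splice forms of Vegfa are not analysed here. Vegfc, the lymphatic ligand of FLT4, was at 2.18 ± 0.365 and 2.61 ± 0.248 FPKM (SD, n = 3), a log2 difference of 0.19. Vegfb lies on chromosome 19 at 6982473 to 6987651 and Vegfa on chromosome 17 at 46016993 to 46032369 of GRCm38, both on the minus strand.

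The receptors for these ligands overlapped between the groups in all 5 cases. Kdr, the main signalling receptor for VEGFA, was at 8.41, 10.4 and 10.1 FPKM in WT and 9.24, 9.05 and 9.45 FPKM in cKO libraries, which lay inside the WT range (log2 difference -0.05, 95% interval -0.31 to 0.22). Flt1, which binds VEGFA and VEGFB, was at 2.42 ± 0.475 and 2.48 ± 0.192 FPKM, and Flt4, the receptor of lymphatic endothelium, at 1.99 ± 0.547 and 1.6 ± 0.238 FPKM (SD, n = 3). The neuropilins were at 4.27 ± 1.54 and 4.65 ± 0.688 FPKM for Nrp1 and 2.18 ± 0.552 and 2.03 ± 0.226 FPKM for Nrp2 (SD, n = 3). In all 5, WT replicate 1 was the lowest WT library, and in 4 of them, Flt4 being the exception, it was the lowest of the 6.

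Among angiopoietins and TIE receptors, Tie1 lay lower in every cKO library. Tie1 was at 9.03, 8.87 and 10.7 FPKM in WT and 7.9, 8.03 and 7.08 FPKM in cKO libraries (log2 difference -0.28, SE 0.12, limma adjusted p = 0.403). On GRCm38 the gene spans 118471191 to 118490061 of chromosome 4. Its partner Tek, the receptor that binds the angiopoietins, was at 6.02 ± 0.886 and 6.48 ± 0.354 FPKM (SD, n = 3), a log2 difference of 0.10 with overlapping groups that was 0.00067 without WT replicate 1. Angpt1, the activating ligand, was at 2.32 ± 0.587 and 2.08 ± 0.293 FPKM, and Angpt2, a context-dependent antagonist, at 1.51 ± 0.606 and 1.69 ± 0.0736 FPKM (SD, n = 3).

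In the apelin and adrenomedullin group, the receptor parts differed in direction. Ramp2, the protein that turns CALCRL into an adrenomedullin receptor, was at 18.6, 14.0 and 17.1 FPKM in WT and 13.3, 13.7 and 12.5 FPKM in cKO libraries (log2 difference -0.30, SE 0.13, limma adjusted p = 0.404). The separation between WT replicate 2 and cKO replicate 2 was small. Ramp2 (chromosome 11 at 101246028 to 101259546 of GRCm38) shares 1103 of its 3301 exon bases with Vps25 on the same strand, which was listed at 0.261 to 0.606 FPKM, so the division of reads between them is uncertain. Calcrl, the receptor itself, was at 4.54 ± 0.421 and 5.15 ± 1.02 FPKM (SD, n = 3), a log2 difference of 0.14. Apln, the ligand apelin, was at 7.63, 5.09 and 4.25 FPKM in WT and 4.13, 3.77 and 4.73 FPKM in cKO libraries, with WT replicate 1 high and the other libraries overlapping. Aplnr, its receptor, was at 10.7, 16.8 and 20.8 FPKM in WT and 15.3, 14.4 and 19.5 FPKM in cKO libraries, with WT replicate 1 low.

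Of the endothelial transcription factors, Sox18 lay lower in every cKO library, with the libraries of each group close together. Sox18, a SOXF factor of blood and lymphatic vessels, was at 29.5, 29.0 and 30.4 FPKM in WT and 25.6, 24.8 and 25.1 FPKM in cKO libraries. The cKO mean was 85.0% of the WT mean (log2 difference -0.23, SE 0.10, 95% interval -0.46 to 0.00, limma adjusted p = 0.406). On GRCm38 the gene spans 181669836 to 181671640 of chromosome 2 (minus strand). The other SOXF genes overlapped: Sox7 was at 4.94 ± 0.749 and 4.9 ± 0.179 FPKM and Sox17 at 3.94 ± 0.368 and 3.41 ± 0.414 FPKM (SD, n = 3). The ETS factors Erg, at 3.07 ± 0.396 and 2.55 ± 0.565 FPKM, and Fli1, at 3.25 ± 0.326 and 3.2 ± 0.563 FPKM (SD, n = 3), overlapped too.

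Prox1, the factor that sets lymphatic identity, was the 1 gene below the level for testing. It was at 0.292, 0.469 and 0.292 FPKM in WT and 0.454, 0.507 and 0.628 FPKM in cKO libraries, from 39 to 86 recovered reads, with overlapping groups. Lyve1 and Mmrn1, other genes of lymphatic endothelium, were also near or below 1 FPKM, with means of 1.053 and 0.876 FPKM for Lyve1 and 0.505 and 0.493 FPKM for Mmrn1 in WT and cKO.

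**Figure D3:**
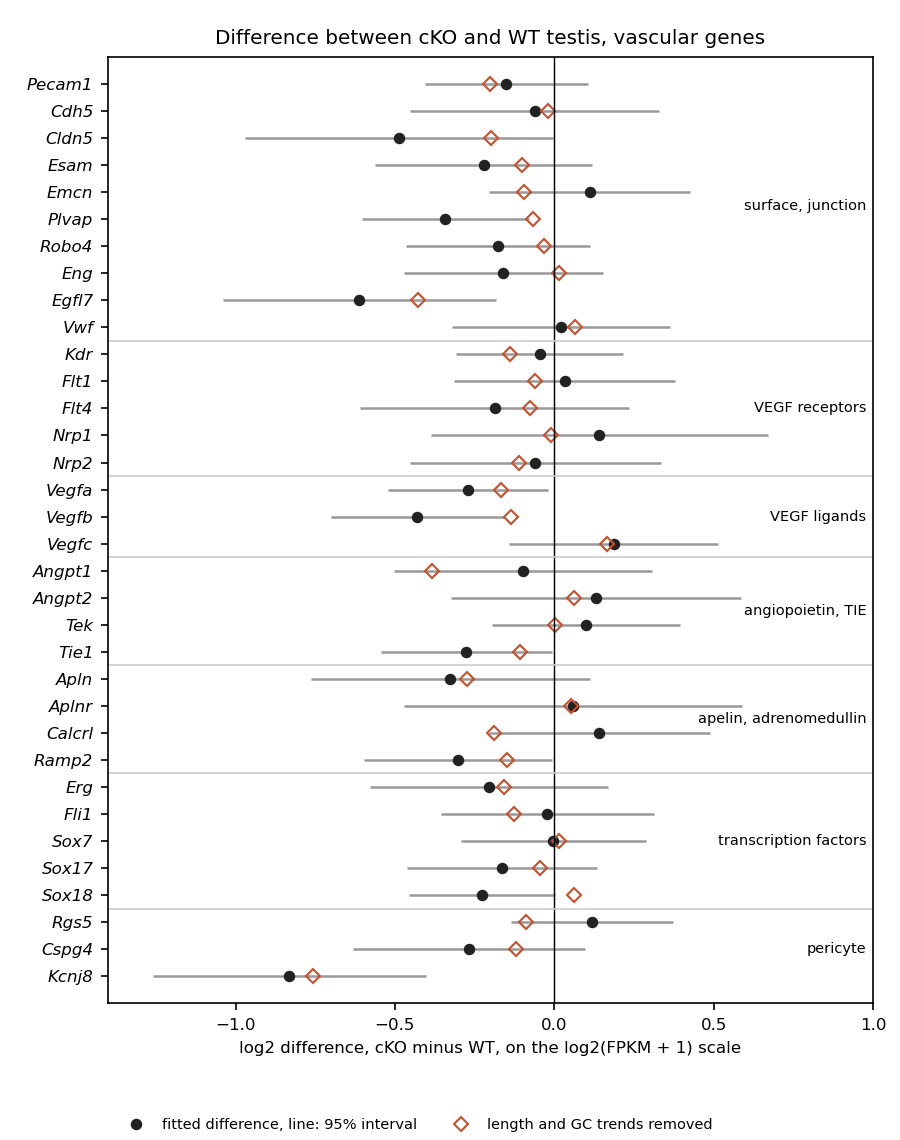
Log2 difference (cKO minus WT, on the log2(FPKM + 1) scale) of the 34 tested vascular genes in role groups; filled circles with lines are the fitted value and its 95% interval, open diamonds the value after the dependence on gene length and GC content was taken out library by library. Kcnj8 stays near its fitted value, at -0.76, while Sox18 moves from -0.23 to 0.06.

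Most of the 9 lower genes had transcripts of high GC content, a property that their choice did not use. Kcnj8, at 52.4%, was the exception, with 8 of the 25 other tested genes above it. GC content ranged from 52.4 to 61.1% in the 9 (median 57.8%) and from 37.5 to 58.2% in the 25 other tested genes (median 50.5%). Their gene lengths were 1416 to 4917 bases (median 2548), against 2449 to 16064 bases (median 4772) in the 25. Across the 34 genes, Spearman's rho between the log2 difference and GC content was -0.79, and with gene length 0.44. These are descriptions over genes measured in the same 6 libraries. Over all tested genes of known GC content rho was -0.63, and with length 0.27.

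The base composition can be seen in stretches of coding sequence, shown for genes from the GC-rich and the GC-poor end and for Kcnj8 between them. Each is 120 bases inside 1 coding exon, chosen for the GC share closest to that of the gene's transcripts and read from GENCODE M21 (GRCm38), 5′ to 3′ on the gene's strand, with G and C in capitals. The stretch of Vegfb is chr19:6986344-6986463 (minus strand, exon 3), with 73 of 120 bases G or C. That of Sox18 is chr2:181671198-181671317 (minus strand, exon 1), also with 73. That of Kcnj8 is chr6:142566331-142566450 (minus strand, exon 3), with 63. Rgs5 and Calcrl, which were not lower, have 50 at chr1:169690429-169690548 (plus strand, exon 4) and 45 at chr2:84339310-84339429 (minus strand, exon 10).
Vegfb: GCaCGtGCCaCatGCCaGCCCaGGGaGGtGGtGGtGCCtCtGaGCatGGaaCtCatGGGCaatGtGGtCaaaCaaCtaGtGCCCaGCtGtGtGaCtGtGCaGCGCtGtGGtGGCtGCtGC
Sox18: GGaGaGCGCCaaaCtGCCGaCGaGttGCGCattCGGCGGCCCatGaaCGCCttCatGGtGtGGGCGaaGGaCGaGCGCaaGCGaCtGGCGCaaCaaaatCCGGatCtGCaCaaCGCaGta
Kcnj8: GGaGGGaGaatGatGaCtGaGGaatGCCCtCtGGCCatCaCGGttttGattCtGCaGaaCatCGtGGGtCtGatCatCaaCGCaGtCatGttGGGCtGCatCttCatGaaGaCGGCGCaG
Rgs5: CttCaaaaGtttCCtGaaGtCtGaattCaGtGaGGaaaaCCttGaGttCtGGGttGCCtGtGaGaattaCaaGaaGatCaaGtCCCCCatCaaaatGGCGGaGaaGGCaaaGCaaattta
Calcrl: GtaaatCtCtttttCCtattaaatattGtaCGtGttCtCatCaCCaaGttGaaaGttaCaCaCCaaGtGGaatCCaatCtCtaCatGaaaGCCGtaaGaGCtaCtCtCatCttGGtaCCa

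The tested genes of known GC content were divided into 5 classes of equal size by GC content. Their median log2 difference went from 0.21 in class 1 (18.1 to 44.6% GC) to -0.21 in class 5 (55.8 to 75.5% GC), and the share lying lower in every cKO library from 1.004% to 25.1%. Class 5 held 11 of the vascular genes, of which 7 lay lower in this way. Class 4 held 8, of which 2 did (Vegfa and Kcnj8), beside 15.2% of all its genes. Classes 1 to 3 held 15 vascular genes, of which 0 did. Few of all genes in these classes did either, with 1.004%, 2.55% and 6.1% in classes 1, 2 and 3. Set against its own class, Sox18 was near the middle: 47.6% of class 5 genes had a more negative difference. That share was 38.1% for Tie1, 32.7% for Ramp2, 26.1% for Plvap, 15.4% for Vegfb and 10.3% for Cldn5. It was 4.52% for Egfl7, and for Kcnj8 it was 0.61% of class 4, where the gene ranked 18 of 2789. Vegfa stood at 18.1% of class 4. These 9 genes were picked for low cKO values, so low shares among them are partly built in. Among the 25 other tested genes the share ran from 6.96% of class 1 (Angpt1) to 87.3% of class 3 (Vegfc). Within class 4, Apln was at 12.3% and Vwf at 75.5%.

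**Figure D4:**
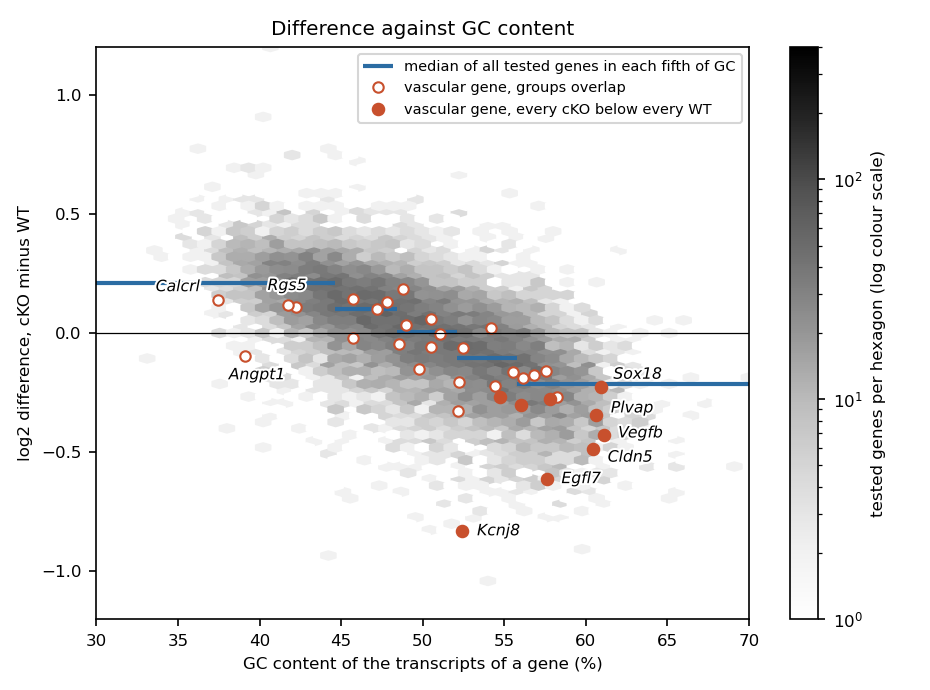
Log2 difference (cKO minus WT) against the GC content of a gene's transcripts in percent; grey hexagons count all tested genes on a log colour scale, blue lines are the medians of the 5 GC classes, and circles are the vascular genes, filled where every cKO library lay below every WT library. Most vascular genes follow the slope of all genes, with Kcnj8 at 52.4% GC and -0.83 farthest below it.

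When the dependence of each library on gene length and GC content was taken out, 8 vascular genes lay lower in every cKO library, beside 8.74% of all tested genes. Of the 9 named above, 3 were among these 8: Kcnj8 (log2 difference -0.76), Egfl7 (-0.43) and Vegfb (-0.14). The other 5 were Angpt1 (-0.38), Calcrl (-0.19), Cspg4 (-0.12), Kdr (-0.14) and Pecam1 (-0.20), and the sign of Calcrl turned. Sox18 turned to 0.06, and Cldn5 (-0.20), Plvap (-0.07), Ramp2 (-0.15), Tie1 (-0.11) and Vegfa (-0.17) overlapped. The median of the 34 genes was then -0.10, and the lowest limma adjusted p was 0.385, for Kcnj8. The GC trend itself differed between the groups: over all tested genes, rho between GC content and a library's deviation from the gene mean was 0.26, 0.34 and 0.43 in the WT libraries and 0.16, -0.59 and -0.56 in the cKO libraries. The share of 18S reads given above also separated the groups. Their part in the differences was not tested.

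WT replicate 1 shaped several of the values. It was the highest of the 6 libraries for 7 tested vascular genes (Cldn5, Robo4, Egfl7, Vegfb, Apln, Ramp2 and Kcnj8, median length 3149 bases) and the lowest for 10 (Cdh5, Kdr, Flt1, Nrp1, Nrp2, Angpt2, Tek, Aplnr, Sox7 and Rgs5, median length 4629 bases). Across the 34 genes, rho between gene length and the deviation in that library was -0.49, and over all tested genes -0.47. Without it, the log2 difference of Kcnj8 was -0.63, of Egfl7 -0.41 and of Cldn5 -0.24. Leaving out a library cannot undo a separation, so the 9 genes necessarily stayed lower in every cKO library. Cdh5, Cspg4, Eng, Flt4, Kdr, Nrp2 and Pecam1 joined them. cKO replicate 2 was the lowest of the 6 for 10 genes.

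A further 93 names of vascular and hypoxia genes were listed as surroundings, of which 91 were in the table and 82 were tested, with 0 past the limma threshold. The share of all tested genes lying lower in every cKO library was 9.92%, and 8.69% lay higher. The lists below were not set against GC classes. Of 22 tested endothelial genes, 5 lay lower in this way and 1 higher (median log2 difference -0.18). The lower ones were Clec14a, Mmrn2, Ushbp1, Gpihbp1, the capillary anchor of lipoprotein lipase, and Sparcl1. S1pr1, the sphingosine 1-phosphate receptor that keeps endothelial junctions tight, was the higher one, at 17.8 ± 1.55 and 22.3 ± 0.537 FPKM (SD, n = 3). Clec14a, a surface lectin of vessels, was at 5.07 ± 0.17 and 3.88 ± 0.327 FPKM (SD, n = 3) with a GC content of 44.6%. That is below every gene of the 9, as is the 49.1% of Sparcl1. Mmrn2 (53.6%), Gpihbp1 (55.5%) and Ushbp1 (55.9%) lay within the range of the 9, and S1pr1 was at 48.8%.

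Of 17 further ligands and receptors, 5 lay lower and 0 higher (median -0.16), beside 9.92% and 8.69% of all tested genes. Pgf, placental growth factor and like VEGFB a ligand of FLT1, was at 5.15 ± 0.285 and 3.26 ± 0.567 FPKM (SD, n = 3), a log2 difference of -0.54 (limma adjusted p = 0.361). Ephb4, the venous ephrin receptor, was at 40.02 ± 1.64 and 31.1 ± 3.95 FPKM, while Efnb2, its arterial ligand, was at 9.56 ± 1.43 and 9.59 ± 1.16 FPKM (SD, n = 3). Cxcl12, Notch4 and Gja5 were the other lower genes. GC content was 61.5% for Notch4, 58.1% for Ephb4, 56.0% for Pgf, 51.9% for Gja5 and 49.1% for Cxcl12. Vegfd was at 19.7 ± 2.98 and 22.1 ± 2.98 FPKM (SD, n = 3), with overlapping groups.

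Of 16 vascular transcription factors, 5 lay lower (Klf2, Elk3, Hey1, Foxc2 and Gata2) and 2 higher (Hif1a and Hey2). The shares over all tested genes were 9.92% and 8.69%. Klf2, which responds to blood flow, was at 19.9 ± 1.44 and 14.7 ± 1.14 FPKM (SD, n = 3), a log2 difference of -0.41 (limma adjusted p = 0.372). Hif1a, the oxygen-regulated factor that acts on Vegfa, was at 39.3 ± 1.13 and 50.1 ± 7.82 FPKM (SD, n = 3), a log2 difference of 0.33 (limma adjusted p = 0.402). Its GC content was 41.0% and that of Klf2 61.6%. Foxc2 was at 62.0%, Gata2 at 57.2%, Hey1 at 53.2%, Elk3 at 49.9% and Hey2 at 42.2%.

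Of 14 tested hypoxia targets, 4 lay lower and 2 higher (median -0.15), beside 9.92% and 8.69% of all tested genes. Ddit4, an inhibitor of mTOR signalling, was at 60.7 ± 8.76 and 39.01 ± 2.74 FPKM (SD, n = 3), a log2 difference of -0.62 (limma adjusted p = 0.36). Egln1, Ldha and Pgk1 were the other lower genes. GC content was 57.9% for Ddit4, 56.0% for Egln1, 51.8% for Ldha and 48.7% for Pgk1. For the higher genes Ero1a and Kdm3a it was 42.9% and 45.4%. Ero1a, an oxidase of the endoplasmic reticulum, was at 7.77 ± 1.14 and 11.4 ± 1.67 FPKM (SD, n = 3), a log2 difference of 0.50, and Kdm3a was the other higher gene.

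Of 4 tested lymphatic genes, Ccl21a, a chemokine of lymphatic endothelium with near-identical copies whose reads may be split, lay lower. It was at 5.62 ± 2.51 and 1.91 ± 0.598 FPKM (SD, n = 3), a log2 difference of -1.13 (limma adjusted p = 0.372). Reln lay higher, at 1.13 ± 0.0684 and 1.35 ± 0.0768 FPKM (SD, n = 3), and Pdpn was at 37.3 ± 2.76 and 37.8 ± 2.96 FPKM. Of 9 tested mural genes, Des lay lower and 0 higher (median -0.05). For these counts, as for the lymphatic ones, the shares of all tested genes were 9.92% and 8.69%. Des, Acta2 and Myh11 of the mural list are also among the myoid markers below, so they do not mark vessel walls alone. Notch3, the receptor of mural cells, was at 18.9 ± 7.0 and 15.6 ± 3.76 FPKM, and Mcam at 33.6 ± 4.08 and 35.7 ± 4.06 FPKM (SD, n = 3). Anpep, an aminopeptidase of pericytes, had a log2 difference of -0.34 with overlapping groups.

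Levels of markers of other cells also differed between the libraries, and their part in the vascular values was not tested. All 14 Sertoli markers had a negative difference, with a summed level of 1542 to 2026 FPKM in WT and 1049.9 to 1253 in cKO libraries. All 7 red blood cell markers had a positive one, with sums of 2717 to 5699 and 4868 to 6495 FPKM that overlapped. Germ cell markers (9 of 9 tested positive) summed to 194.7 to 406 FPKM in WT and 262 to 396 in cKO, and Leydig markers (4 of 6 positive) to 1276 to 1903 and 1495 to 1743. Stroma markers (5 of 8 negative) summed to 833 to 873 FPKM in WT and 637 to 809 in cKO, and myoid markers (3 of 5 negative) to 178 to 214 and 181 to 214. Macrophage markers (4 of 8 negative) summed to 27.8 to 33.5 and 21.9 to 27.7 FPKM. Platelet and megakaryocyte markers, another source of Vwf and Pecam1, summed to 4.16 to 7.16 FPKM in WT and 5.65 to 6.06 in cKO, and 1 of 5, Pf4, reached the level for testing. No listed marker was at 0 in every library. The 35 vascular genes summed to 379.5 to 395 FPKM in WT and 315 to 340.3 in cKO libraries. Abundant genes weigh most in such a sum, and no length or GC trend was removed. The VEGF ligands gave 68.5 to 75.2 FPKM of it in WT and 52.8 to 60.5 in cKO. Sums of the VEGF receptor, angiopoietin and TIE, and apelin and adrenomedullin groups overlapped between WT and cKO. Those of the other role groups did not.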

How the data were processed

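Per the labels' protocols, RNA of whole testis was isolated by Trizol and the SMARTER mRNA-Seq kit gave the libraries. The deposited table holds an FPKM value for each gene in each of the 6 libraries. The builds GRCm38 and mm10 are named in the submitters' processing notes; the sources used here name no aligner, counting tool, annotation release or strand setting. FPKM times gene length fell on whole multiples of 1 step per library in 100% of values (tolerance 0.01), which gave reads per gene. The denominator of the FPKM was 0.99 to 1.02 times the recovered reads. Intervals cover the spread between samples, and reads their own counting error only.

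Differences (cKO minus WT) were fitted on log2(FPKM + 1) in R 4.3.3 by limma 3.58.1, with its trend option, over the 14238 genes with a mean of at least 1 FPKM; p-values were adjusted by Benjamini-Hochberg and called at 0.05. The pseudocount of 1 understates differences of low genes. The procedure was also run on simulated counts, with the outcome not given here. Those counts held no length or GC trend and no outlying library, so the run does not cover such features of these data. GC content is that of all GENCODE M21 transcripts of a gene (known for 97.9% of tested genes), and positions are those of GENCODE M21, matched by gene identifier. Length and GC trends were removed per library with natural splines of 5 degrees of freedom; this also removes a trend that differs between genotypes. The members and lists were chosen with earlier results of these data known. Named were all 35 members, and of the other lists genes whose groups did not overlap and those of lowest p; values in every library were given for members whose groups did not overlap and for those of highest level. Kdr, Apln and Prox1, also given by library, Abcc9, Efnb2, Vegfd, Lyve1, Mmrn1, Notch3, Mcam and Pdpn were named after their values were seen. Marker lists covered Sertoli, germ, Leydig, myoid, stroma, macrophage, red blood and platelet genes. Other steps used Python 3.11.15 (numpy 2.4.6, pandas 2.3.3).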

Additional observations from a re-analysis of the deposited data

How the results depend on the processing

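The 9 genes lower in every cKO library and the 0 genes past the adjusted threshold rest on 3 samples a group, with few reads for the low genes, where differences of the sizes seen could not be resolved. In 16 alternatives the number past limma's adjusted threshold stayed 0; the lowest adjusted p ranged from 0.199 (Kcnj8, without WT replicate 2) to 0.842 (Vegfb, without cKO replicate 3). The count of lower genes, an outcome added after the data were seen, ran from 9 to 16 of 34 when 1 library was left out. The share of all tested genes was then 12 to 19.4%. Leaving out a library cannot undo a separation, so this count could not fall below 9. Without WT replicate 2 it was 11, beside 19.4%. It was 6 on the TPM scale (Plvap, Sox18 and Tie1 lost), beside 6.39%, 8 with length and GC trends removed, beside 8.74%, and 8 of the 18 genes with a mean of at least 5 FPKM (Kcnj8 not tested), beside 12.2%. The median log2 difference was -0.22 over the 18 genes with a mean of at least 5 FPKM. On the TPM scale, which raised the median of all genes to 0.07, Kdr turned to 0.010, Fli1 to 0.028 and Sox7 to 0.055, and with limma voom on recovered reads Sox7 turned to 0.019. With length and GC trends removed, Emcn turned to -0.094, Eng to 0.014, Flt1 to -0.059, Nrp1 to -0.011, Calcrl to -0.19, Sox7 to 0.014, Sox18 to 0.063 and Rgs5 to -0.088; the cause was not tested. Leaving out 1 library turned the sign of genes with small differences, whose values ranged from -0.084 to 0.12 for Flt1, -0.13 to 0.29 for Nrp1, -0.040 to 0.31 for Angpt2, -0.19 to 0.26 for Aplnr, -0.22 to 0.041 for Cdh5, -0.13 to 0.0045 for Kdr, -0.11 to 0.088 for Fli1, -0.081 to 0.12 for Vwf, -0.21 to 0.035 for Nrp2 and -0.075 to 0.096 for Sox7. Without a change of sign, the values ranged from 0.00067 to 0.18 for Tek, 0.035 to 0.28 for Calcrl, 0.032 to 0.19 for Emcn and 0.064 to 0.17 for Rgs5. Same-numbered samples deviated with correlations of 0.09, -0.33 and 0.39. The last, of WT replicate 3 with cKO replicate 3, was the highest of all pairs of a WT and a cKO library. With 3 samples a group these values cannot decide whether equal numbers mark pairs, and the sources used here do not say. With the replicate block 0 genes passed and the lowest limma adjusted p was 0.331. The count of lower genes was 9, which the block cannot change.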
